A study of Mus musculus with 2 samples.

Results

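Nuclear receptors are transcription factors, most of which change activity when a small fat-soluble ligand enters a pocket in the protein. The set described here is 41 mouse genes of this superfamily, taken by symbol from the GENCODE M21 annotation by a rule that uses no measured value, out of 55536 Ensembl genes and 21951 protein-coding genes measured. The members were nonetheless chosen with earlier results of these data known. Each member was found in both libraries. They span 14 subfamilies, among them the receptors for retinoids, thyroid hormone, fatty acids, oxysterols, bile acids and steroids, and orphan members with no firmly assigned ligand. Other genes of the superfamily were not analysed here, so a share or sum of a subfamily covers only its genes in the set.

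Most nuclear receptors hold a zinc-finger domain that reads a short hexamer in DNA, and many bind as heterodimers with a retinoid X receptor. Without ligand, several of them recruit co-repressors such as Ncor1, and with ligand they exchange these for co-activators. In adult liver the family controls bile acid, cholesterol, fatty acid and drug metabolism, while the liver of the midgestation embryo is also the main site of red cell production.

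The sequence that separates the family most directly is the P-box, a stretch of 6 codons in the first zinc finger. Its codons 2, 3 and 6 encode residues that help to tell hexamers apart. A finger with this layout was found in the coding sequence of 39 of the 41 genes. It was not found in Nr0b1 and Nr0b2, which are known to lack the DNA-binding domain. All 6 encoded residues sorted the 39 genes into 9 classes, and 25 genes fell in the first. Codons 2, 3 and 6 alone give 8 classes, since Hnf4g and Nr2e1 encode the same residues there and differ in the codons between. The highest member of each class by level is shown to make the classes visible, with Nr3c2 standing for the steroid class. Each line gives the 18 coding bases, 5′ to 3′, from the GENCODE M21 transcript sequences, and capitals mark codons 2, 3 and 6.
Nr1h2: tgtGAAGGCtgcaaaGGC
Nr2f6: tgcGAGGGCtgcaagAGT
Esrra: tgtGAGGCCtgcaaaGCC
Nr3c2: tgcGGCAGCtgcaaaGTC
Esr2: tgtGAAGGAtgtaagGCC
Hnf4g: tgtGATGGCtgcaaaGGC
Nr5a1: tgcGAGAGCtgcaagGGC
Nr2e1: tgcGACGGCtgctccGGA
Nr2e3: tgcAATGGCtgcagtGGC
The first class held the retinoid, thyroid, fatty acid, oxysterol, bile acid and vitamin D receptors and all Nr4a, Rev-erb and ROR genes of the set. Of its 25 genes, 17 reached 1 TPM in both libraries. TPM is a gene's abundance per length, scaled to the same total in each library, and so compares levels between genes. The other 4 expressed receptors were Nr2f1 and Nr2f6, with a class of their own, Esrra and Nr3c1.

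The study measured polyA RNA of whole liver from healthy B6NCrl mouse embryos at 12.5 days. It held a single group of 2 libraries, called biological replicates in the labels, made from pooled males and females, 120 embryos for replicate 1 and 88 for replicate 2. RNA came from mirVana extraction, and 10 ng with added ERCC spike-in RNA was reverse transcribed by the SMARTer Ultra Low method and fragmented by Nextera tagmentation. With a single group there was no contrast of conditions, so levels and their spread are described and no p-value was computed.

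Ensembl genes received 37190042 and 34291772 expected counts in replicates 1 and 2, and the 41 receptors took 14001 and 12644 of them, or 0.0376% and 0.0369%. All 5 hepatoblast, 5 erythroid, 5 macrophage, 5 endothelial and 5 mesenchymal markers were at 1 TPM or more in both libraries, while none of 5 neural markers was. Afp stood at 5250 and 5065 TPM and the erythroid globin gene Hba-a2 at 102198 and 103099 TPM. A receptor level in such a mixed tissue cannot be assigned to a cell type, and fewer cells of a type and less RNA per cell cannot be told apart.

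Of the 41 receptors, 21 (51.2%) were at 1 TPM or more in both libraries, against 53.7% of protein-coding genes, and 19 were under 1 TPM in both. Only 6 receptors (14.6%) reached 10 TPM in both, against 31.6% of protein-coding genes. The median receptor level was 1.17 TPM in replicate 1 and 1.07 TPM in replicate 2 (1.12 ± 0.0707, SD, n = 2), below the protein-coding median of 1.85 ± 0.0141 TPM. The share of receptors at 1 TPM was thus close to the background, and the share at 10 TPM was below it.

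The summed level of the family was 193 ± 1.75 TPM (SD, n = 2), and a few genes carried most of it. The 3 highest, Nr1h2, Nr2f6 and Rxrb, held 52.1% ± 0.654 of the sum and the 5 highest 67.6% ± 0.697. Below the 3 highest came Nr3c1, then Nr1h3 and Thra, whose library ranges overlapped, so that the order of Nr1h3 and Thra is not resolved. From Rarb through Rara, Esrra, Ppara and Rarg to Rxra each gene stood above the next in both libraries, except that with posterior mean TPM, the authors' other estimate, Rarg came above Rarb and the ranges of Rara and Esrra overlapped. Rora, Nr1h4, Nr6a1 and Nr1d2 overlapped as neighbours, as did Thrb, Nr1i2 and Nr2f1, and from Nr1d1 downwards nearly every neighbour did.

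**Figure D1:**
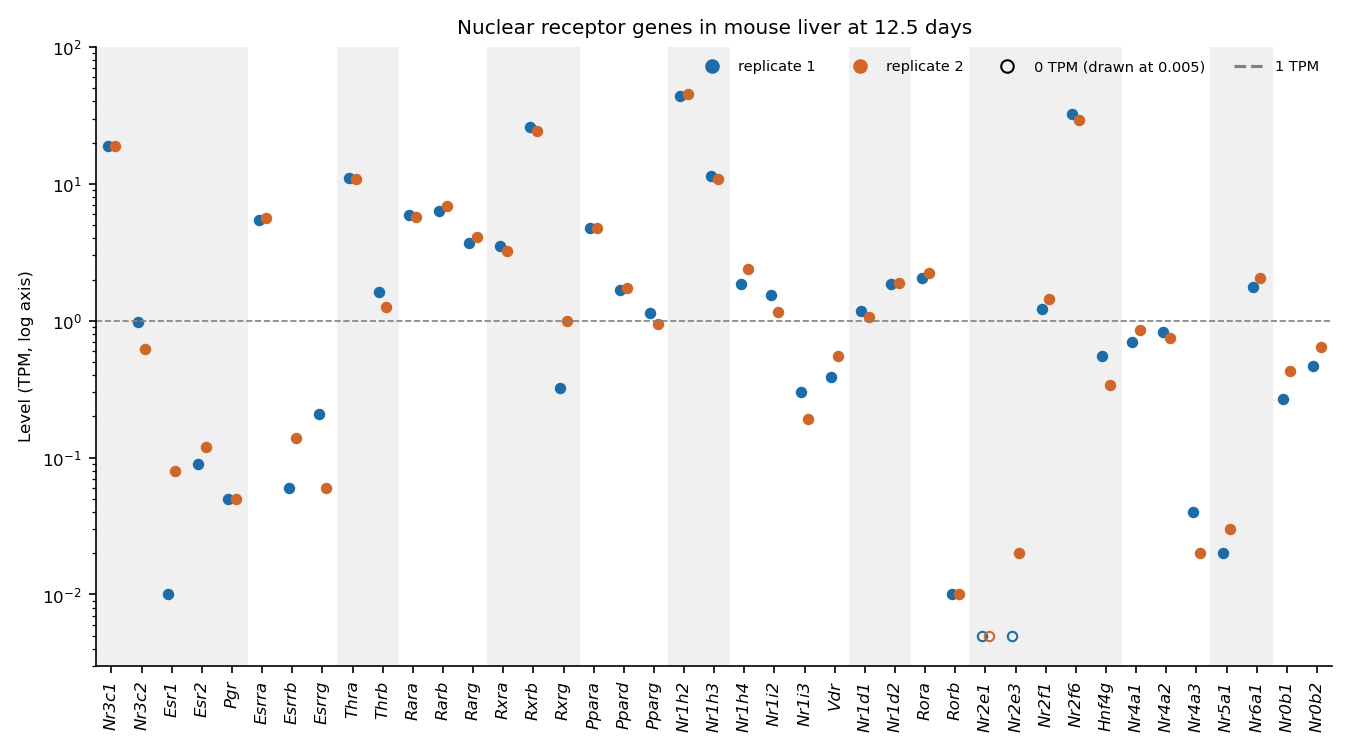
Level of each of the 41 receptor genes in TPM on a log axis, grouped by subfamily (alternate shading), with a point for each library; open points mark 0 TPM. Nr1h2, Nr2f6, Rxrb, Nr3c1, Nr1h3 and Thra lie above 10 TPM in both libraries, and the libraries differ most for genes under 1 TPM.

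Among the retinoid X receptors, the shared dimer partners, Rxrb was by far the most abundant. Rxrb (chr17:34031812-34038399, plus strand) stood at 26.2 and 24.4 TPM in replicates 1 and 2, Rxra at 3.52 and 3.22 TPM, and Rxrg at 0.32 and 0.99 TPM. Rxrb was thus 7.52 ± 0.098 times as high as Rxra (SD, n = 2) and made up 86.3% ± 1.36 of the subfamily. The Rxrb models differed in their coding sequence. The largest share of Rxrb TPM, 46.3% and 44.6%, was assigned to a model with 410 codons that starts at position 34032401. The 524-codon model, which starts further upstream, received 27.6% and 27.3%. All Rxra TPM was assigned to models with 467 codons.

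The 3 retinoic acid receptors were all at 1 TPM or more in both libraries, and their leading member held the smallest share of any of the 14 subfamilies. These receptors bind retinoic acid and activate or repress developmental genes. Rarb was at 6.38 and 6.87 TPM, Rara at 5.92 and 5.72 TPM and Rarg at 3.72 and 4.06 TPM. Rarb held 40.5% ± 1.02 of their sum, 1.14 ± 0.0872 times the level of Rara and 1.70 ± 0.0162 times that of Rarg (SD, n = 2). The order Rarb, Rara, Rarg was the same in both libraries but did not hold with the authors' posterior mean TPM. By that estimate Rarg stood at 6.65 and 7.3 TPM, Rarb at 6.5 and 7.28 TPM and Rara at 6.24 and 6.04 TPM, and Rarb was 0.987 ± 0.014 times as high as Rarg (SD, n = 2). Rarb also shares 1793 exon bases with Top2b on the opposite strand, which had 7634 and 7520 expected counts against 357 and 391 for Rarb. Because the use of strand is not given, reads of both genes cannot be told apart there and the Rarb level is uncertain.

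Each retinoic acid receptor gene has more than 1 promoter, and the transcript shares differed between the genes. For Rara, the models with 462 codons took 55.2% and 54.5% of TPM from the start at chr11:98937698 (plus strand), and the 459-codon model took 44.8% and 42.8% from an internal start at position 98960412. These lengths are those of the known forms RARα1 and RARα2. Rarg was less balanced: the 447-codon form from the internal start took 78.8% and 72.4%, and the 458-codon form from the start 11017 bases upstream took 13.7% and 17.5%. For Rarb, models starting within 1000 bases of position 16575543 on chromosome 14 (minus strand) took 93.6% and 92.3%. The first annotated Rarb start lies 243613 bases upstream, and models starting more than 1000 bases upstream took 6.43% and 7.71%. The 448-codon model, the length of the known form RARβ2, held 36.7% and 40.6% of Rarb TPM, and a model with 61 codons, annotated as a target of nonsense-mediated decay, held 26.6% and 37.3%.

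A repeat with the spacing of the known retinoic acid response element of Rarb lies near this start. The direct repeat of 2 hexamers spaced by 5 bases was found at chr14:16575513-16575529 (GRCm38.p6, minus strand), 53 to 37 bases before the RefSeq start at position 16575476. It lies downstream of the GENCODE start at position 16575543 and upstream of the GENCODE start at position 16575472. The 30 bases around it are shown, from the RefSeq promoter table, with the repeat in capitals.
Rarb: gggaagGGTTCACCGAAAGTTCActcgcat
The hexamers searched were the usual consensus AGGTCA, the variant GGGTCA, the variant AGTTCA and the variant GGTTCA, in any pairing, on both strands, in the 250 bases before and 50 bases after each start. The variants GGTTCA and AGTTCA are the 2 hexamers of the Rarb repeat itself, so a match in Rarb was fixed by the search and is no finding. Such a repeat was found in 32 of 32851 promoters (0.0974%). Among the 56 promoters of the 37 receptors in the table, no other receptor held it. Repeats spaced by fewer bases were found in no receptor promoter, and in 0.0396% to 0.268% of all promoters. The single hexamer AGGTCA stood in 11 receptor promoters (19.6%) and in 16.3% of all promoters. A match of letters is a description and does not show that a factor binds there. CpG pairs were counted per 300 bases, taking for each gene its promoter with the most. The median was 21 for the 19 matched genes at 1 TPM in both libraries and 14.5 for the 18 other matched genes. Over all 27025 genes of the table it was 8. The receptors had more promoters per gene than the whole table (56 for 37 genes against 32851 for 27025). This can raise such a maximum, so the medians are not fully comparable.

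Genes that carry and convert retinoids were partly expressed. Of 14 such genes, 8 reached 1 TPM in both libraries and 5 were under 1 TPM in both, with a median of 2.59 ± 0.134 TPM (SD, n = 2). The plasma retinol carrier Rbp4 was at 1201 and 1199 TPM and the retinal reductase Dhrs3 at 28.4 and 29.1 TPM. Crabp1, which binds retinoic acid in the cytoplasm, was at 6.27 and 9.03 TPM. The retinoic acid degrading enzymes were low: Cyp26a1 had 2 and 6 counts, and Cyp26c1 had 0 counts in both libraries.

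Thra was the predominant thyroid hormone receptor. Thra (chr11:98740638-98769006, plus strand) was at 11.1 and 10.9 TPM and Thrb (chr14:17660261-18038090, plus strand) at 1.62 and 1.25 TPM, a ratio of 7.79 ± 1.3 (SD, n = 2). Under the older GENCODE M4 annotation Thrb fell below 1 TPM and the ratio was 15.4 ± 0.956. The 410-codon Thra model, the length of the hormone-binding form TRα1, took 53.3% and 56.5% of Thra TPM. The 492-codon model, the length of TRα2, which does not bind the hormone, took 39.1% and 39.6%. Thrb was the only receptor at 1 TPM whose leading coding sequence differed between libraries: the 475-codon model led in replicate 1 with 34.2% and the 461-codon models in replicate 2 with 41.3%, on 134 and 122 counts for the whole gene. Of 6 genes that handle or respond to thyroid hormone, 2 reached 1 TPM in both, with a median of 0.16 ± 0.0707 TPM. The highest was the plasma carrier Ttr, at 196 TPM in each library. The deiodinase genes, whose products convert the hormone, were near 0: Dio1 at 0.06 TPM in each, Dio2 at 0.08 and 0.02 TPM and Dio3 at 0.34 and 0.11 TPM. Thrsp, a hormone-induced lipogenic gene of adult liver, was at 0.03 and 0.11 TPM.

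**Figure D2:**
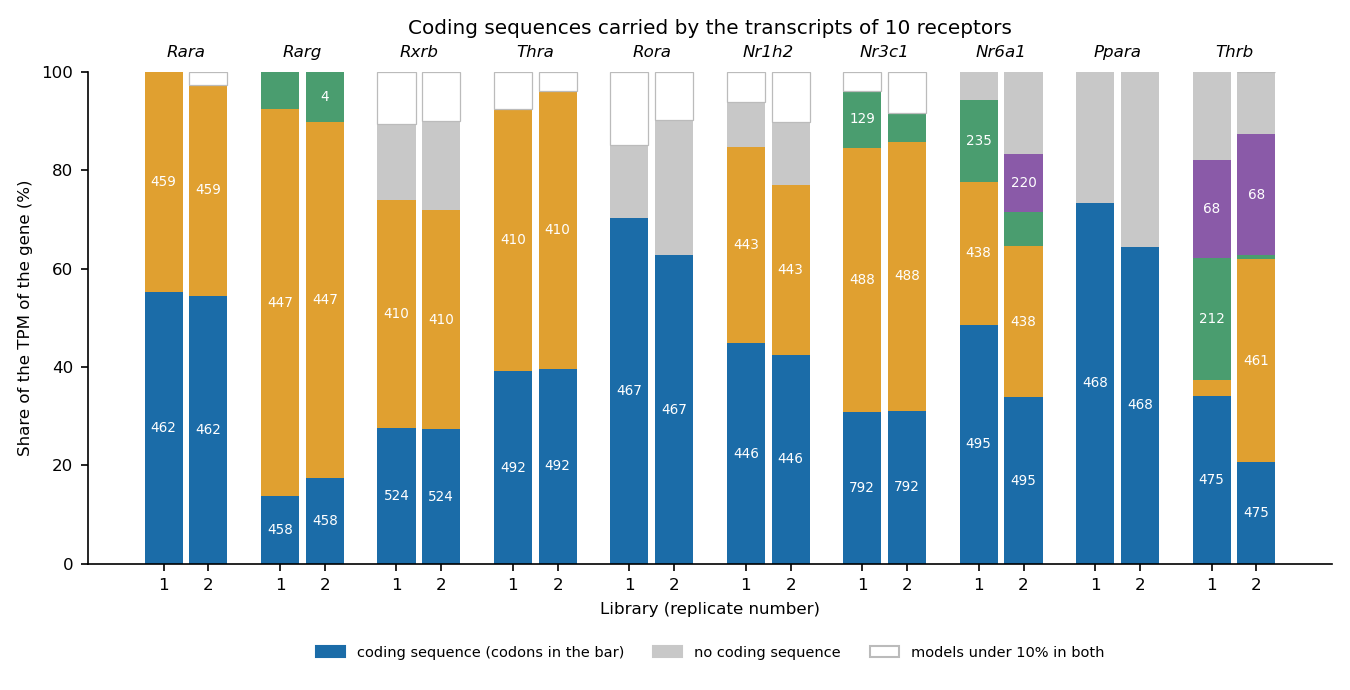
Share of each gene's TPM (percent) assigned to models with the same coding sequence, for 10 receptors and both libraries; numbers in the bars are codons, grey is models with no coding sequence and white is coding sequences under 10% in both libraries. Rara, Rxrb, Thra and Nr3c1 split in nearly the same way in both libraries, while Thrb does not.

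Ppara led the fatty acid receptors, which bind fatty acids and their derivatives and act on lipid oxidation and storage. Ppara was at 4.75 and 4.73 TPM, Ppard at 1.67 and 1.73 TPM and Pparg at 1.14 and 0.95 TPM. Ppara was 2.79 ± 0.0779 times as high as Ppard (SD, n = 2) and held 63.3% ± 0.709 of the subfamily. Pparg, the regulator of fat cell formation, lay just outside the 1 TPM threshold in replicate 2 and passed it with posterior mean TPM, at 1.7 and 1.59 TPM. Of 12 known target genes, 9 reached 1 TPM in both, with a median of 10.0 ± 0.933 TPM. The lipid droplet gene Plin2 was at 113 and 108 TPM, the fatty acid carrier Fabp1 at 98.4 and 91.0 TPM and the oxidation gene Acadm at 44.8 and 43.2 TPM. By contrast Fgf21, Cyp4a10 and Cyp4a14, targets that are strongly induced in adult liver, had 0 counts in both libraries.

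Over the genes of the set, the oxysterol receptors had the highest summed level of the 14 subfamilies, 55.4 ± 0.799 TPM (SD, n = 2). They sense cholesterol derivatives. Nr1h2 (LXRβ, chr7:44549616-44553951, minus strand) was at 43.5 and 45.2 TPM and Nr1h3 (LXRα, chr2:91184061-91202834, minus strand) at 11.4 and 10.8 TPM. Nr1h2 was the highest receptor of the set and 4.01 ± 0.255 times as high as Nr1h3. Nr1h2 was assigned to 446-codon models at 44.8% and 42.5% and to 443-codon models at 40.0% and 34.6%, while Nr1h3 was 94.3% and 92.9% of 1 coding sequence, with 445 codons. Of 9 known target genes, 7 reached 1 TPM in both, with a median of 7.47 ± 0.976 TPM. Scd2, a fatty acid desaturase, was at 114 and 124 TPM, the phospholipid enzyme Lpcat3 at 56.2 and 62.3 TPM and the lipogenic factor Srebf1 at 38.3 and 42.6 TPM. The cholesterol exporter Abca1 was at 8.48 and 8.16 TPM, and the biliary sterol exporters Abcg5 and Abcg8 were each at 0.12 TPM in replicate 1 and at 0.22 and 0.23 TPM in replicate 2.

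The receptors for bile acids, foreign compounds and vitamin D were low. The bile acid receptor Nr1h4 (FXR) stood at 1.87 and 2.37 TPM and the xenobiotic receptor Nr1i2 (PXR) at 1.55 and 1.15 TPM. Nr1i3 (CAR) was at 0.30 and 0.19 TPM and Vdr at 0.39 and 0.55 TPM, both under 1 TPM in each library. The 474-codon form of Nr1h4 took 75.8% and 96.2% of its TPM. Nr1i3 shares 3304 exon bases with Tomm40l on the opposite strand, which was at 18.4 and 17.3 TPM. The expected counts of Nr1i3 and Tomm40l were not whole numbers singly but summed to 1142 and 975, and the use of strand is not given in the sources, so the Nr1i3 level is uncertain.

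The known targets of these receptors were low as well. Of 8 bile acid genes only Abcb11, the bile salt exporter, reached 1 TPM in both libraries, at 1.15 and 1.80 TPM, and the median was 0.338 ± 0.0247 TPM (SD, n = 2). Cyp7a1, the rate-limiting enzyme of bile acid synthesis, was at 0.15 and 0.17 TPM. The transporter gene Slc51a was at 0.55 and 0.48 TPM, the bile salt importer Slc10a1 at 0.50 and 0.48 TPM, and Slc51b had 0 and 5 counts. Of 5 CAR and PXR targets only the exporter Abcc2 reached 1 TPM, at 7.37 and 6.87 TPM, and the median was 0.015 ± 0.0212 TPM. Cyp3a11 had 2 counts in each library and Cyp2b10 had 3 and 0. No counts were assigned to Cyp2c29 or Ugt1a1, the latter sharing exons with its gene cluster, which makes its count uncertain. Of 5 vitamin D genes, the plasma carrier Gc at 28.3 and 39.5 TPM and the hydroxylase Cyp27a1 at 1.93 and 2.35 TPM reached 1 TPM in both (list median 0.85 ± 0.396 TPM). Cyp24a1, a classic Vdr target, had 0 counts.

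The glucocorticoid receptor Nr3c1 held nearly all the summed TPM of the 5 steroid receptors in the set. Nr3c1 (chr18:39410545-39519421, minus strand) was at 18.8 and 18.9 TPM, and the mineralocorticoid receptor Nr3c2 at 0.98 and 0.62 TPM. Their ratio was 24.8 ± 7.96 (SD, n = 2), and Nr3c1 held 94.3% and 95.6% of the subfamily sum. With posterior mean TPM, Nr3c2 was at 1.41 and 1.19 TPM and the ratio was 14.7 ± 1.8. The sex steroid receptors in the set were close to 0: Esr1 had 3 and 6 counts, Esr2 9 and 11 and the progesterone receptor Pgr 6 and 7. For Nr3c1, the model with the largest share of TPM, 53.6% and 54.7%, had 488 codons, and the models with 792 codons took 30.9% and 31.1%. These shares are per length, and the counts were ordered otherwise. The 488-codon model, 1891 bases long, received 591 and 561 counts. A 792-codon model of 6436 bases received 888 and 624 counts, and another of 6327 bases received 310 and 495. Of 7 genes that handle glucocorticoids or respond to them, 5 reached 1 TPM in both, with a median of 5.31 ± 0.424 TPM. The plasma carrier Serpina6 was at 887 and 848 TPM, the response genes Tsc22d3 at 13.4 and 14.3 TPM and Sgk1 at 10.2 and 9.67 TPM, and the inactivating enzyme Hsd11b2 at 5.61 and 5.01 TPM. The activating enzyme Hsd11b1 was at 0.75 and 0.99 TPM, and Tat, an enzyme gene induced by glucocorticoids around birth, at 0.08 and 0.11 TPM.

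Receptor chaperones, which hold unliganded steroid receptors, were abundant. All 6 reached 10 TPM in both libraries, with a median of 312 ± 5.48 TPM (SD, n = 2). Hsp90aa1 stood at 1009 and 919 TPM, Hsp90ab1 at 921 and 842 TPM, Ptges3 at 342 and 339 TPM and Fkbp4 at 290 and 277 TPM.

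Esrra, an orphan receptor that acts on mitochondrial genes, was at 5.46 and 5.65 TPM. It held 95.9% ± 0.914 of the oestrogen-related receptors (SD, n = 2). Esrrb had 8 and 17 counts and Esrrg 13 and 9.

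Among the Nr2 orphan receptors, Nr2f6 (chr8:71374123-71381960, minus strand) was at 32.5 and 29.5 TPM, second to Nr1h2 in the set. It made up 94.5% ± 0.434 of the summed TPM of the 5 Nr2 genes in the set (SD, n = 2). Other Nr2 genes were not analysed, so this is no share of all Nr2 RNA. Of Nr2f6 TPM, 97.4% and 95.2% was assigned to the 390-codon model. Nr2f6 shares 1622 exon bases with Ocel1 on the opposite strand, at 5.68 and 5.77 TPM, so its level is uncertain in the same way. Nr2f1, a regulator of neural development, was at 1.22 and 1.45 TPM. Hnf4g was at 0.55 and 0.34 TPM. Nr2e3, a photoreceptor factor, had 0 and 1 counts, and Nr2e1, a factor of neural stem cells, had 0 in both, which allows up to 0.0767 and 0.0829 TPM from 3 counts. Nr2e1 was the only receptor with no counts in either library.

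The clock-linked receptors, of which the Rev-erb genes repress and the ROR genes activate shared targets, were expressed at low levels. Nr1d2 (Rev-erbβ) was at 1.87 and 1.88 TPM, Nr1d1 (Rev-erbα) at 1.17 and 1.07 TPM and Rora at 2.04 and 2.25 TPM, while Rorb had 4 counts in each library. Nr1d2 was 1.68 ± 0.112 times as high as Nr1d1 (SD, n = 2). Nr1d1 lies opposite Thra with 263 shared exon bases, and their expected counts were not whole but summed to 881 and 803, so the split between Nr1d1 and Thra is uncertain. The 467-codon Rora model, whose start lies 635896 bases downstream of the first annotated start, took 70.4% and 62.7% of Rora TPM. Of 11 clock genes, 9 reached 1 TPM in both, with a median of 3.74 ± 0.544 TPM. Cry2 was at 11.8 and 12.1 TPM, Cry1 at 10.4 and 10.6 TPM, Arntl at 4.5 and 4.73 TPM and Nfil3 at 4.51 and 4.14 TPM, and Npas2 at 0.05 and 0.15 TPM.

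The remaining subfamilies had 1 expressed gene in the set. Nr6a1, a receptor of germ cells and early embryos, was at 1.75 and 2.04 TPM. Its leading start, 143173 bases downstream of the first annotated start, took 50.9% and 42.6% of TPM, and models starting more than 1000 bases upstream of it took 48.6% and 45.6%. Nr5a1, a regulator of adrenal and gonad, had 2 and 3 counts. Of 5 adrenal and gonad markers only Hsd3b1 reached 1 TPM, at 9.78 and 9.22 TPM, while Star was at 0.44 and 0.49 TPM and Cyp11a1, Cyp17a1 and Amh were under 0.1 TPM. The immediate early genes Nr4a1 and Nr4a2 were at 0.70 and 0.86 TPM and at 0.83 and 0.75 TPM, and Nr4a3 had 1 and 3 counts. Nr0b2 (SHP), a repressor induced by bile acids through Nr1h4, was at 0.47 and 0.64 TPM, and Nr0b1 at 0.27 and 0.43 TPM. The Nr4a and Nr0b groups were the only 2 of the 14 subfamilies with no gene at 1 TPM in both libraries. With posterior mean TPM, Nr4a2 passed this threshold at 1.3 and 1.24 TPM, which leaves Nr0b alone.

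In contrast to the receptors, the shared co-regulators were expressed throughout. All 10 co-repressor genes reached 1 TPM in both, with a median of 24.7 ± 0.339 TPM (SD, n = 2). Gps2 was at 105 TPM in each library, Ncor1 at 93.7 and 90.6 TPM, the deacetylase Hdac3 at 47.8 and 44.5 TPM and Nrip1 at 26.9 and 26.8 TPM. All 11 co-activator genes reached 1 TPM as well, with a median of 9.54 ± 0.255 TPM. The methyltransferase Prmt1 was at 219 and 207 TPM, the mediator subunit Med1 at 35.1 and 33.9 TPM, Carm1 at 32.7 and 34.2 TPM and the acetyltransferase Ep300 at 9.89 and 11.2 TPM.

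**Figure D3:**
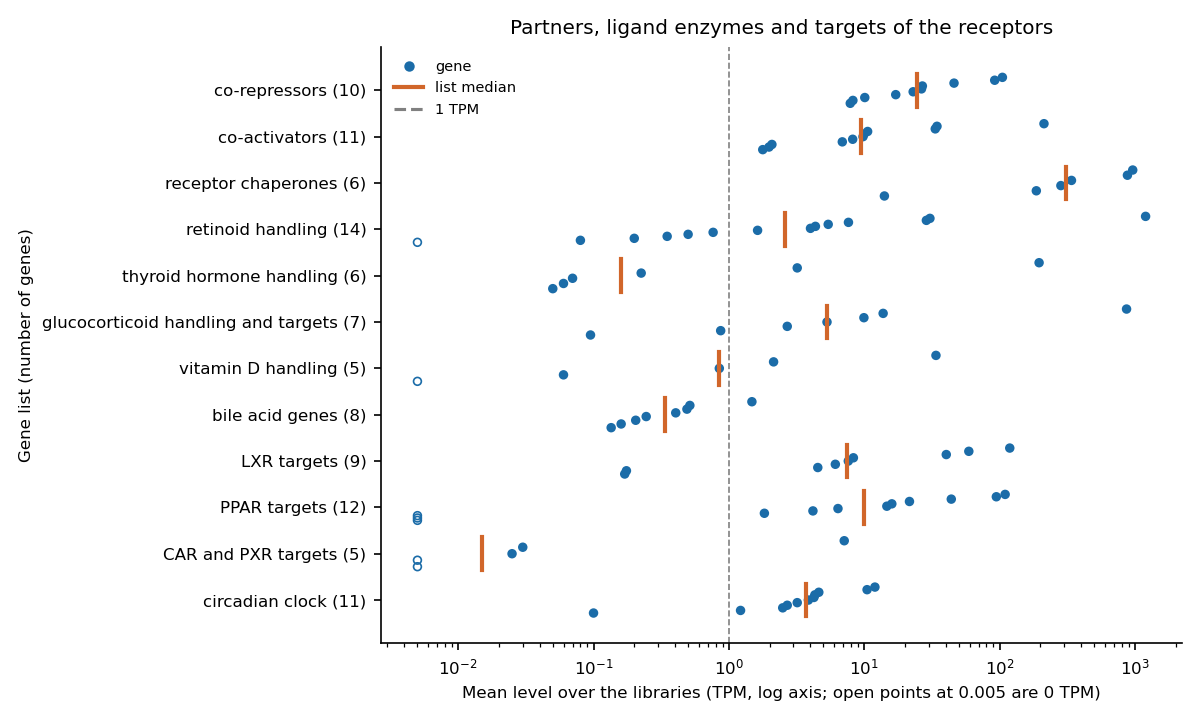
Mean TPM over the libraries on a log axis for every gene of 12 lists of receptor partners, ligand-handling genes and targets (points), with the median of each list (bar) and 1 TPM (dashed line). Chaperone, co-repressor and co-activator genes all lie above 1 TPM, whereas 7 of 8 bile acid genes and 4 of 5 CAR and PXR targets lie below it.

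Over the 21 receptors at 1 TPM in both libraries, 15 had at least 2 transcript models that each took 10% of the gene's TPM in both libraries. The background was 55.8% of 11785 protein-coding genes. Grouped by identical coding sequence, 14 receptors had at least 2 forms, where a gene's models with no coding sequence counted as 1 form. Esrra, Ppara, Ppard, Rora and Nr2f1 reached 2 forms only through that form. Each of them had a single coding sequence at 10% in both libraries. Grouped by starts within 50 bases, 14 receptors had at least 2 starts. The leading transcript differed between libraries in 4 receptors, Thrb, Ppara, Nr1h2 and Nr1h3, and the leading coding sequence in Thrb alone. Such shares are estimates from short reads that several models have in common.

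The libraries were compared on scaled expected counts, and a gene was called when it differed by over 2-fold and the scaled split lay outside the exact 95% binomial interval of its counts. This compares 2 pools of embryos and covers counting error only. Of 34 receptors with a mean of at least 10 counts, 1 was called, against a background of 2.34% of 17343 genes in either direction and 1.36% higher in replicate 2. The called gene was Rxrg (chr1:167598384-167639623, plus strand), the third retinoid X receptor, which is known from muscle and nervous tissue. It had 19 counts in replicate 1 and 52 in replicate 2, a ratio of 2.91 (95% interval 1.72 to 5.3), or 1.54 on the log2 scale.

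All 21 receptors at 1 TPM in both libraries lay within 0.5 of 0 on the log2 scale, as did 30 of the 34 compared. The median absolute log2 ratio was 0.17 for the receptors and 0.1 for all genes compared. Besides Rxrg, the interval lay apart from the scaled split for Rarb (ratio 1.19, interval 1.02 to 1.37), Rxrb (0.916, 0.854 to 0.981), Nr1i2 (0.743, 0.556 to 0.985) and Nr2f6 (0.894, 0.839 to 0.951), with none past 2-fold. The share of all genes passing the interval alone was not computed, so whether these receptors stand out cannot be told.

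Since Rxrg is known from muscle and nervous tissue, levels of genes of both are described. The list of 8 skeletal and cardiac muscle genes was added after the values were seen. How many of them were called is therefore no finding. Their summed level was 45.2 TPM in replicate 1 and 68.2 TPM in replicate 2. Myog was at 0.90 and 4.10 TPM, Myod1 at 0.30 and 1.18 TPM and Actc1 at 7.69 and 17.1 TPM, whereas Mylpf was at 31.5 and 34.6 TPM. Of the neural markers, which were planned, Tubb3 was at 0.64 and 0.34 TPM, Map2 at 0.87 and 1.23 TPM and Stmn2 at 0.73 and 0.88 TPM. None of these 3 was called. The lists were chosen differently, so they cannot be set against each other. Elavl3 and Sox1 had too few counts to be compared. The part of muscle RNA in the Rxrg difference was not tested.

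**Figure D4:**
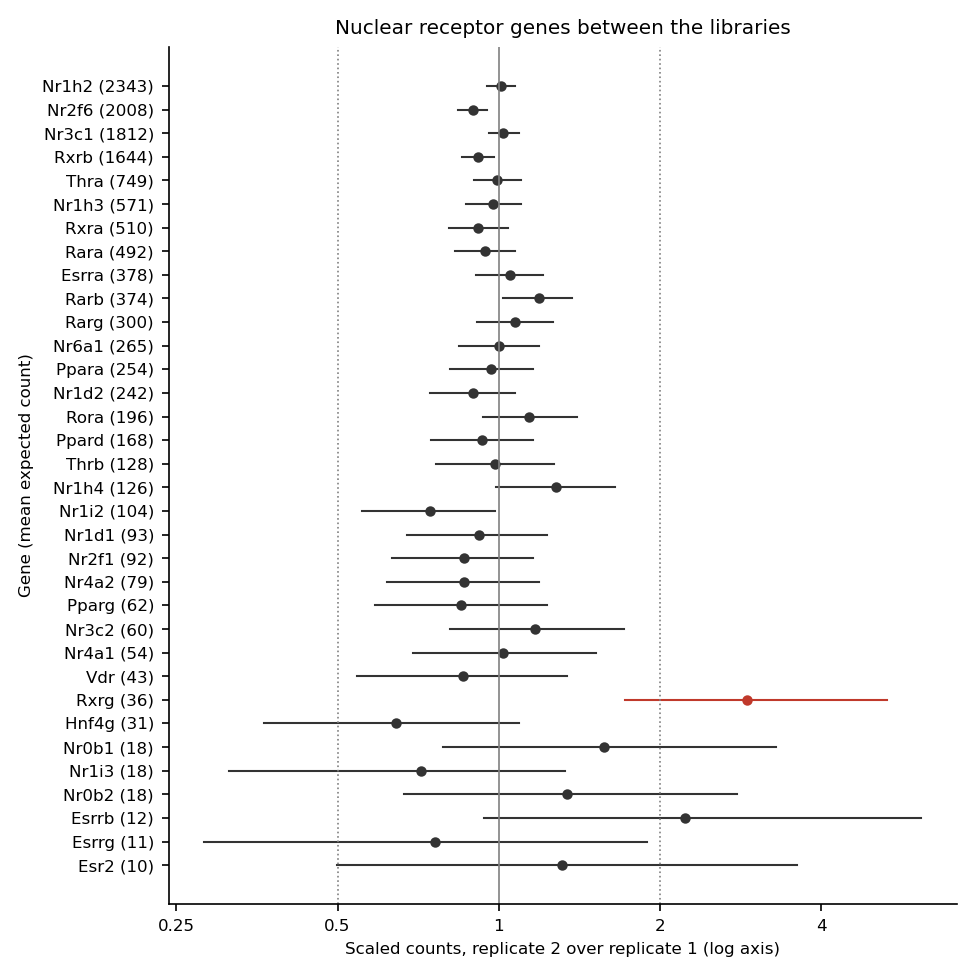
Ratio of scaled expected counts, replicate 2 over replicate 1, on a log axis for the 34 receptors with a mean of at least 10 counts (mean in brackets), with exact 95% intervals; dotted lines mark 2-fold and red marks the called gene. Intervals widen as counts fall, and Rxrg is the only gene past 2-fold whose interval does not include 1.

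Each library was also quantified by the authors under the older GENCODE M4 annotation, which tests how far a level rests on the gene models. The levels were compared after adding 1 TPM to each, which damps differences of genes near 1 TPM. Of 24 receptors at 1 TPM or more under either annotation, 0 then passed a 1.5-fold difference the same way in both libraries. The background was 5.38% of 13620 genes. With 0.1 TPM added instead, Thrb was called, against 6.72% of these genes. Thrb came closest. Its level was 1.62 and 1.25 TPM under M21 and 0.72 and 0.77 TPM under M4, a difference of 0.61 and 0.35 on the log2 scale with 1 TPM added. The other 23 receptors were within 1.5-fold in both libraries by the same measure.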

How the data were processed

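PolyA RNA of 2 liver libraries was quantified by the authors per gene and transcript on the mm10 assembly under GENCODE M21 and M4, per the notes deposited with each library. The expected counts (and their posterior means) and the TPM values are as deposited, per the file headers, and need not be whole because the authors' quantification divides reads between features. No source used here gives the aligner, the quantifier or the use of strand. TPM totals include ERCC spike-ins, 4.99% and 5.4% of TPM.

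The rule for the 41 members uses no measured value, but the members and the lists were chosen with earlier results of these data known. M21 was used unless M4 is named. Levels are TPM per library with mean ± SD. For the library comparison, expected counts were scaled by TMM in edgeR 4.0.16 with a prior count of 0.5, and split counts were rounded to whole numbers for binomial intervals in SciPy 1.17.1. Genes with a mean count under 10 were left out, which removed 7 members. This procedure was tested on simulated data. Annotations were compared as log2 of TPM plus 1, over genes at 1 TPM under either. All 41 members are named; of each list the 4 highest genes and up to 2 lowest under 1 TPM are named (ties included), except some that are not reported here. In place of protein stretches, which were planned, P-box coding DNA is shown, found by a pattern of zinc-binding cysteines in GENCODE M21 transcripts. Promoters came from RefSeq (GRCm38.p6) and matched 37 members by symbol. The p-values a replicated contrast would give were not computed, since there is a single group. The alternatives tried were size factors from DESeq2 1.42.0, scaling by total counts or spike-ins, other filters and folds, posterior means, rescaled TPM, M4 and each library alone.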

Additional observations from a re-analysis of the deposited data

How the results depend on the processing

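Of 238 values recomputed under an alternative, 199 kept their call or moved by less than the spread, 38 moved and 1 reversed. The reversed value was the ratio of Rarb over Rarg, 0.987 with posterior mean TPM. Ratios between paralogues under posterior mean TPM and M4 were added after seeing the data. Of the 21 receptors at 1 TPM, 1 (Rarg) moved by over 1.5 times with posterior mean TPM and 1 (Thrb) with M4. At a threshold of 2 TPM, 13 receptors remained in both libraries. Each library alone gave 21 to 22 receptors at 1 TPM. With posterior mean TPM the receptors Nr3c2, Pparg and Nr4a2 also passed 1 TPM, the receptor median was 1.39 TPM, the sum 207 TPM and the median leading share of a subfamily 82.7%, against 83.2%. With M4 the sum was 198 TPM and the leading share 82.8%, and with TPM rescaled over Ensembl genes the sum was 204 TPM. Rxrg was called under all 3 other scalings, all filters, posterior mean counts and M4. By fold alone 2 receptors were called (Rxrg and Esrrb), and by TPM plus 0.5, an alternative added after seeing the data, 0 were. Between annotations, 1 receptor (Thrb) was called with 0.1 TPM added, 1 with posterior mean TPM, and 0 to 1 with each library alone, Thrb without replicate 2. At 20% of the gene's TPM, 6 receptors kept 2 transcripts. The cause of these moves was not tested. No paired analysis was possible because the series has a single group. Leaving out a library could not be run for the library comparison, which needs both. With 2 libraries, an SD rests on 1 difference, and at under 10 counts a receptor's level is not resolved.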

Other observations

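For some low receptors the TPM and the counts moved apart between the libraries. Nr3c2 had 58 and 63 counts in replicates 1 and 2 but 0.98 and 0.62 TPM, a log2 ratio of 0.23 for scaled counts and -0.66 for TPM, with effective lengths of 1817 and 3350 bases. Vdr had 48 and 38 counts but 0.39 and 0.55 TPM, with effective lengths of 3800 and 2297 bases. Esrrg had 13 and 9 counts but 0.21 and 0.06 TPM. The effective length of a gene is the mean over its transcript models, weighted by the share assigned to each, and it differed by more than 1.2-fold between libraries in 8 receptors, of which 2 were at 1 TPM or more in both.

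Expected counts were shared with another gene in 6 of the 41 receptors, and in the other 35 the posterior SD of the count was 0 in both libraries. The counts of Rarb and Top2b summed to 7991 and 7911. Nr2f6 and Ocel1 summed to 2661 and 2240 counts. Rarb had a posterior SD of 6.6 and 6.76 counts on 357 and 391 counts, and Nr2f6 one of 7.53 and 7.74 on 2199 and 1817.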
